A study of Saccharomyces cerevisiae with 227 samples.

Results

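The effect of oxygen return on transcript levels was compared between *S. cerevisiae* cells of strain JM43 whose samples are labelled as grown in galactose medium and as grown in glucose medium. The comparison rests on 18 of the 227 arrays of the series, 3 for each medium at 6, 6.13 and 7.6 generations. For each gene, the change at 6.13 and at 7.6 generations relative to 6 generations in the galactose-labelled series was set against the same change in the glucose-labelled series. The difference at 6.13 generations is called early and that at 7.6 generations late. Each is galactose minus glucose on the log2 scale, so a positive value means a larger rise or a smaller fall in the galactose-labelled series.

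Strain JM43 carries leu2, his4, trp1 and ura3 mutations. All cultures grew in sparged batch fermentors in semi-synthetic medium with Tween 80 and ergosterol, which supply the unsaturated fatty acids and sterol that cells cannot make without oxygen, and with an antifoam. They grew first in air and then for 6 generations in oxygen-free nitrogen, and the arrays at 6 generations are the anaerobic controls. The gas was then returned to air, and cells were taken at 6.03, 6.06, 6.1, 6.13, 6.2, 6.3, 6.4, 6.6, 6.8 and 7.6 generations, for 33 arrays per medium. The labels do not state whether the 3 arrays of a group come from separate cultures. The P values thus measure only the spread between arrays of the same group, pooled over all medium and time groups. Time was counted in generations, so the same time point may not be the same number of minutes in the 2 media.

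Yeast senses oxygen largely through molecules whose synthesis requires it. Heme activates Hap1 and the Hap2/3/4/5 complex, which drive genes of the respiratory chain, and it induces the repressor Rox1, which shuts off hypoxic genes. Sterol levels are read by Upc2 and Ecm22, which control genes of ergosterol synthesis and the cell wall mannoproteins of anaerobic cells. Galactose and glucose differ in that glucose represses respiration, gluconeogenesis and galactose use through Mig1 and related factors. Oxygen return also exposes cells to reactive oxygen species, and the stress factors Msn2 and Msn4 induce catalase T and small heat shock proteins.

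The gas change was visible in CYC1, HEM13 and DAN1 in both series. CYC1, which encodes iso-1-cytochrome c, was at −5.61, 1.17 and −0.10 relative to the reference at 6, 6.13 and 7.6 generations in the galactose-labelled series and at −4.69, 1.05 and 0.02 in the glucose-labelled series. HEM13, the hypoxic gene of heme synthesis, was at 2.21, −1.63 and −1.88 in the galactose-labelled series and at 1.10, −1.10 and −3.54 in the glucose-labelled series. DAN1, an anaerobic mannoprotein gene, was at 2.10, −0.92 and −3.13 in the galactose-labelled series and at 1.13, −0.51 and −4.65 in the glucose-labelled series. The means of the hypoxic genes COX5B and TIR1 were also lower at both times than at 6 generations. ANB1, another hypoxic gene, was higher at 6.13 than at 6 generations in both series and lower at 7.6. It was at −0.09, 0.84 and −0.46 in the galactose-labelled series and at 0.47, 0.86 and −0.82 in the glucose-labelled series. Outside a stretch of rows described below, the early changes of the 2 series correlated across 5163 genes (r = 0.86, rho = 0.78), and so did the late changes across 5166 genes (r = 0.80, rho = 0.55).

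The carbon source labels, by contrast, did not match the genes that report carbon source. On the 33 galactose-labelled arrays GAL1, the galactokinase gene, lay between −0.42 and 0.36 relative to the reference, and on the 33 glucose-labelled arrays it lay between 8.30 and 8.80. GAL7 lay between 9.27 and 10.32 on the glucose-labelled arrays, and GAL10 between 8.33 and 9.14. The glucose-induced genes HXT1 and MIG2 were low there, with medians of −3.74 and −3.98. Genes of galactose use are induced by galactose and repressed by glucose, so glucose-grown RNA set against galactose-grown reference RNA would be low in them. The labels name a galactose reference for both series, whereas the sample descriptions give a pool of the time points. HXT3, a hexose transporter gene that glucose induces, had a median of −0.20 on the galactose-labelled arrays and 0.63 on the glucose-labelled arrays, in the direction of the labels. Whether the medium labels or the reference RNA differ from what is stated was not tested, so the series are called galactose-labelled and glucose-labelled throughout. The reference cancels in a change within a series. Were the labels exchanged, each sign of a difference would turn, and each count of higher genes would become one of lower genes.

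A stretch of 396 rows in the order of the table, YOR346W to YPR100W, behaved unlike the rest. Inside it, the early changes of the 2 series correlated at r = 0.13 across 394 genes and the late changes at −0.01 across 395, against 0.86 and 0.80 outside. The stretch was found after the values were seen, and its cause was not tested. Inside it the late change in the galactose-labelled series correlated at −0.72 with the change under nitrogen in galactose medium and at 0.04 with that of the msn2/4 mutant, while the glucose-labelled series correlated at −0.54 with the change under nitrogen in glucose medium and at −0.52 with that of the mutant. A gene name there may not stand for the same gene in both series, and the genes of the stretch are counted apart. One library also stood apart, replicate 2 at 7.6 generations in the galactose-labelled series, which correlated at 0.621 and 0.574 with its partners, while these correlated at 0.869 with each other.

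At 6.13 generations the series differed in 145 of 5557 genes (2.61%), 74 higher (1.33%) and 71 lower (1.28%) in the galactose-labelled series, by limma's moderated statistic at a Holm-adjusted P of 0.01 over all genes tested. Of these, 62 lay among the 394 genes of the stretch (15.7%). The other 83 are 1.61% of the 5163 genes outside, 38 higher (0.736%) and 45 lower (0.872%). At 7.6 generations 127 of 5561 genes differed (2.28%), 46 higher (0.827%) and 81 lower (1.46%). Of these, 46 lay in the stretch (11.6% of 395) and 81 outside (1.57% of 5166), where 27 were higher (0.523%) and 54 lower (1.05%). The differences at the 2 times share the arrays at 6 generations. The change on an array is its value less the mean of the arrays of its series at 6 generations. SDs and overlaps of such changes thus leave out the spread at 6 generations. The 3 changes of one series did not overlap those of the other in any called gene. Among all genes tested outside the stretch, this was so of 32.2% at 6.13 generations and of 28.8% at 7.6 generations. The counts, standard errors (SE) and P values leaned on the spread of all 66 arrays. A fit to the groups compared only called 71 early and 32 late genes, and 29 of the 97 called differences of named genes passed under every alternative. Some of these 29 lay in the stretch, among them those of OYE3, MET12, PBI1, YAR1 and CQD1.

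**Figure D1:**
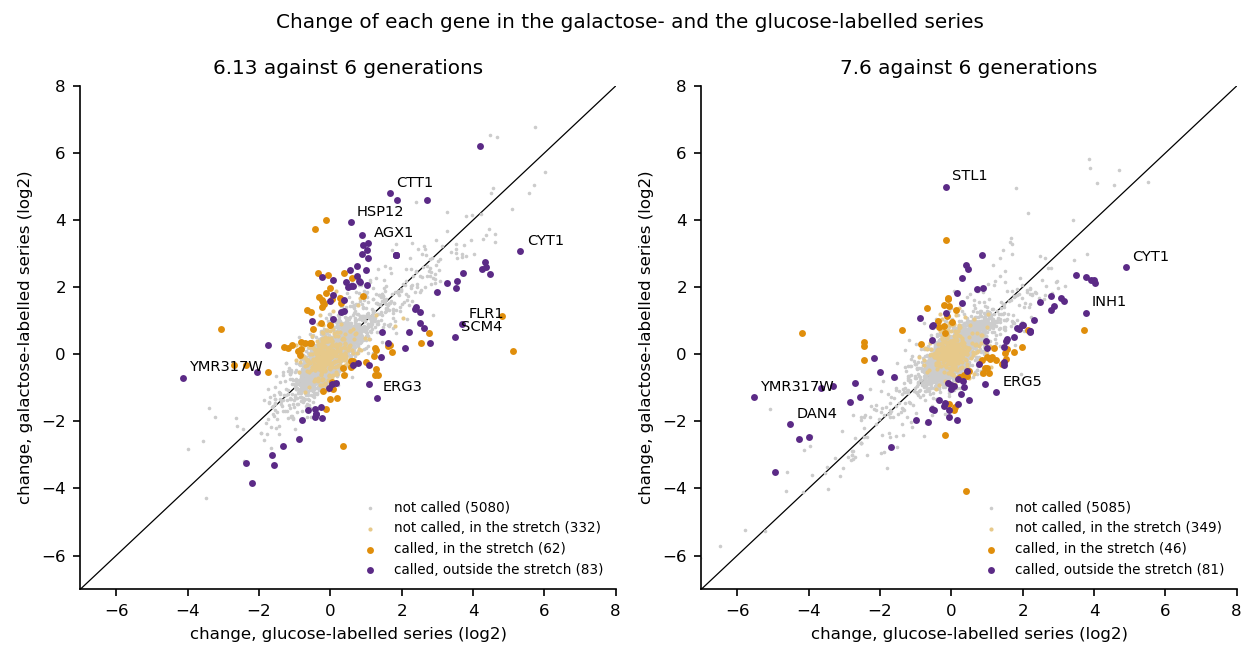
Change of each gene in the galactose-labelled series (vertical axis, log2, mean of 3 arrays) against its change in the glucose-labelled series (horizontal axis, log2), at 6.13 generations on the left and 7.6 generations on the right, both relative to 6 generations. Purple points outside the stretch (83 early, 81 late) and orange points in the stretch (62 early, 46 late) passed the test of the difference and lie off the line of equal change.

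Within a series, 16% of genes changed early in the galactose-labelled series and 11% in the glucose-labelled series, and 12.2% and 10.6% changed late. Outside the stretch, 8.73% rose and 7.24% fell early in the galactose-labelled series, against 7.04% and 3.72% in the glucose-labelled series. Late, 7.2% rose and 5.05% fell in the galactose-labelled series, against 6.48% and 3.99% in the glucose-labelled series.

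Among the 83 early genes outside the stretch, 26 rose in both series and 7 fell in both, so that the sizes and not the directions differed. In the galactose-labelled series alone 25 rose and 10 fell, and in the glucose-labelled series alone 10 rose and 3 fell. ERG1 and ERG3 fell in the galactose-labelled series and rose in the glucose-labelled series. "Alone" here means that the change in the other series did not pass the test. Among the 81 late genes, 21 rose in both and 14 fell in both. In the galactose-labelled series alone 11 rose and 18 fell, and in the glucose-labelled series alone 11 rose and 2 fell. MET22 rose in the galactose-labelled series and fell in the glucose-labelled series, and in 3 genes neither change passed.

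Stress genes were among those with the largest positive early differences outside the stretch. HSP12, which encodes a small membrane-associated stress protein, changed by 3.76, 3.90 and 4.19 on the galactose-labelled arrays and by 0.36, 0.80 and 0.55 on the glucose-labelled arrays. The difference between means of 3 arrays each was 3.38 ± 0.39 (SE, Holm-adjusted P = 7.42e-08), or 10.4-fold. This SE, like the others given for differences, comes from the spread within all medium and time groups, not from these arrays alone. CTT1, the cytosolic catalase T, changed by 4.68, 4.57 and 5.16 on the galactose-labelled arrays and by 1.59, 1.76 and 1.65 on the glucose-labelled arrays, a difference of 3.14 ± 0.30 (adjusted P = 3.61e-10). It rose in both series, and each galactose-labelled change lay above each glucose-labelled one. Relative to the reference at 6 generations, HSP12 was at −3.94, −4.02 and −3.37 on the galactose-labelled arrays and at 1.99, 1.90 and 2.44 on the glucose-labelled arrays. CTT1 was then at −2.98, −3.20 and −2.98 against 1.17, 0.84 and 1.02. These levels compare between the series only if both share a reference.

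CTA1, the peroxisomal catalase A, changed by 6.14, 6.18 and 6.29 on the galactose-labelled arrays and by 4.42, 4.21 and 3.98 on the glucose-labelled arrays. Its difference of 2.00 ± 0.26 (adjusted P = 2.12e-06) sat on top of a large rise in both. Of 36 heat shock and Msn2/4 target genes outside the stretch, 3 (HSP12, CTT1 and ALD3) passed the test upward and 0 downward. The median difference of the list was 0.23 against 0.0059 over all genes outside the stretch. Beside this and the other lists, 0.736% of all genes outside the stretch were higher and 0.872% lower early. Late, 0.523% were higher and 1.05% lower. The oxidative defence list was split. CTT1 and CTA1 were higher and PRX1 and OYE2 lower among 35 genes. PRX1, the mitochondrial peroxiredoxin, rose by 2.61, 2.46 and 2.60 on the galactose-labelled arrays against 4.03, 4.21 and 4.49 on the glucose-labelled arrays, a difference of −1.69 ± 0.20 (adjusted P = 2.22e-07). That call was lost with quantile normalization, where the difference was −0.62.

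**Figure D2:**
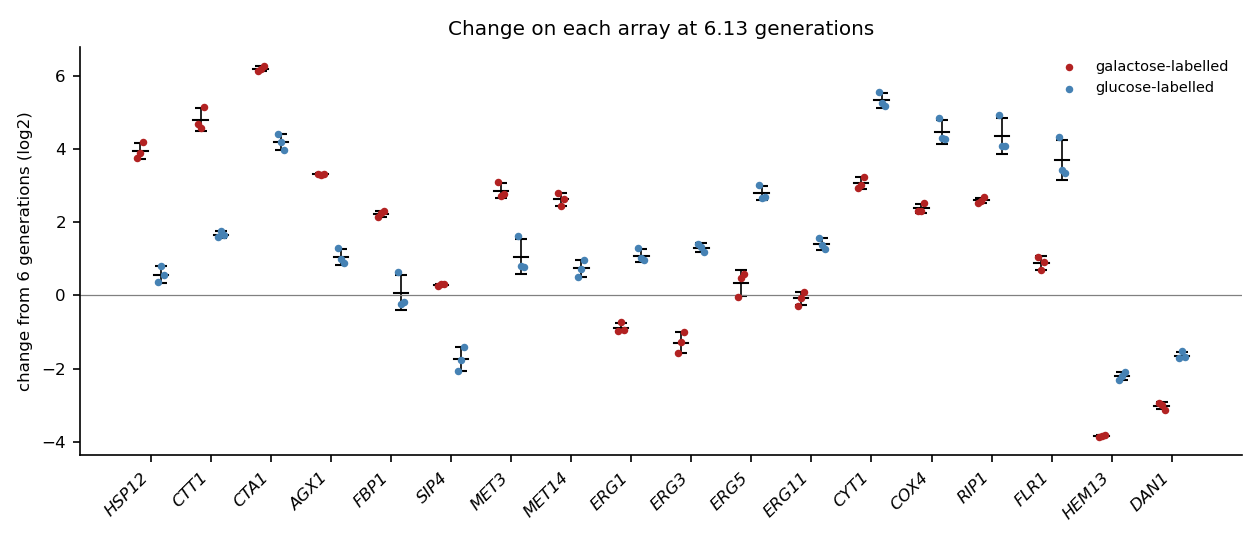
Change at 6.13 generations relative to 6 generations (log2) on each array for 18 genes outside the stretch, galactose-labelled arrays in red to the left of glucose-labelled arrays in blue, with lines at the mean and bars of 1 SD. The bars leave out the spread of the arrays at 6 generations. Red points lie above blue points for HSP12, CTT1 and MET3 and below them for ERG3, CYT1, FLR1 and HEM13.

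In sulfate assimilation and methionine synthesis, 5 of 24 genes outside the stretch (MET3, MET10, MET14, MET16 and MET22) were higher early and 0 lower, with a median difference of 1.02. This pathway reduces sulfate to the sulfide used for methionine and cysteine. The array medians of the list averaged 2.30 ± 0.20 in the galactose-labelled series and 1.21 ± 0.23 in the glucose-labelled series (SD, n = 3). MET14, the adenylylsulfate kinase gene, changed by 2.80, 2.44 and 2.65 on the galactose-labelled arrays and by 0.51, 0.73 and 0.98 on the glucose-labelled arrays, a difference of 1.89 ± 0.33 (adjusted P = 0.00425). MET3, the ATP sulfurylase gene, changed by 3.10, 2.72 and 2.77 on the galactose-labelled arrays and by 1.62, 0.79 and 0.78 on the glucose-labelled arrays, a difference of 1.80 ± 0.32 (adjusted P = 0.00423). Both calls were lost when any of 9 of the 12 arrays was left out (adjusted P up to 0.0427 for MET14 and 0.0529 for MET3).

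Genes of gluconeogenesis and acetate use also included higher members. FBP1, fructose-1,6-bisphosphatase, changed by 2.14, 2.24 and 2.30 on the galactose-labelled arrays and by 0.64, −0.22 and −0.19 on the glucose-labelled arrays, and AGX1, alanine:glyoxylate aminotransferase, by 3.33, 3.29 and 3.33 against 1.29, 0.99 and 0.89. The differences were 2.15 ± 0.37 (adjusted P = 0.00184) and 2.26 ± 0.14 (adjusted P = 4.07e-18). With JEN1, the lactate permease gene, 3 of 17 genes outside the stretch in that list were higher and 0 lower. Among all genes outside the stretch the shares were 0.736% and 0.872%. FBP1 lost its call without any 1 of 6 arrays (adjusted P up to 0.0412), and also in the fit to the groups compared only. SIP4, a glucose-repressed activator of gluconeogenic genes, changed by 0.26, 0.30 and 0.30 on the galactose-labelled arrays, while it fell on the glucose-labelled arrays, with changes of −2.07, −1.76 and −1.41. Its difference was 2.03 ± 0.26 (adjusted P = 1.64e-06).

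Other genes higher early by more than 2 on the log2 scale were RIM4, a meiotic RNA-binding protein gene, with 3.69, 3.35 and 3.65 on the galactose-labelled arrays and 1.35, 0.66 and 0.65 on the glucose-labelled arrays, PHM7, YNL195C and YTP1, with differences of 2.33, 2.53 and 2.11, and SEO1, a putative permease gene, at 2.72 ± 0.50 (adjusted P = 0.00763). SEO1 lost its call without any 1 of 10 arrays (adjusted P up to 0.123). RIM4 and YTP1 lost theirs in the fit to the groups compared only (adjusted P = 0.508 and 0.0341). YMR317W, which encodes a mucin-like protein, changed little on the galactose-labelled arrays, by −0.49, −0.68 and −0.91, and fell on the glucose-labelled arrays, with changes of −4.04, −4.05 and −4.29, a difference of 3.44 ± 0.23 (adjusted P = 3.92e-16). BRX1, a ribosome assembly factor gene, rose on the galactose-labelled arrays, by 0.86, 0.98 and 1.15, against −0.76, −0.27 and −0.48 on the glucose-labelled arrays, and was the one of its list to differ outside the stretch.

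In ergosterol synthesis, 5 of 23 genes outside the stretch were lower early and 0 higher. All 23 had a negative difference, with a median of −0.54. The list rose in both series at 6.13 generations, with array medians of 1.27 ± 0.20 in the galactose-labelled series and 1.79 ± 0.08 in the glucose-labelled series (SD, n = 3). ERG3, the C-5 sterol desaturase, and ERG1, squalene epoxidase, both use oxygen as a substrate. ERG3 changed by −1.58, −1.28 and −1.0 on the galactose-labelled arrays and by 1.42, 1.32 and 1.18 on the glucose-labelled arrays, so the signs were opposite at this time. ERG1 changed by −0.98, −0.74 and −0.93 on the galactose-labelled arrays and by 1.28, 1.02 and 0.96 on the glucose-labelled arrays. The differences were −2.59 ± 0.31 (adjusted P = 2.90e-07) and −1.97 ± 0.16 (adjusted P = 8.99e-13).

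ERG5, the C-22 sterol desaturase, changed by −0.05, 0.48 and 0.59 on the galactose-labelled arrays and by 3.03, 2.67 and 2.69 on the glucose-labelled arrays, a difference of −2.46 ± 0.30 (adjusted P = 4.89e-07). ERG11, lanosterol demethylase, did so by −0.27, −0.07 and 0.10 against 1.58, 1.39 and 1.26, a difference of −1.49 ± 0.20 (adjusted P = 1.03e-05). ERG26 was the fifth. ERG5 lost its call with quantile normalization (adjusted P = 0.0304), and both ERG5 and ERG11 lost it in a fit to the groups compared only. With 6.1 and 6.8 generations in place of 6.13 and 7.6, ERG11 (−0.57, adjusted P = 1.0) and ERG3 (adjusted P = 0.0487) lost their calls.

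Of 36 respiratory chain genes outside the stretch, 7 were lower early and 0 higher. The median difference was −0.16, although the array medians of the list were 1.68 ± 0.03 in the galactose-labelled series and 1.55 ± 0.06 in the glucose-labelled series, so these summaries differ in sign. CYT1, cytochrome c1 of complex III, rose by 2.94, 3.01 and 3.25 on the galactose-labelled arrays and by 5.56, 5.26 and 5.18 on the glucose-labelled arrays, a difference of −2.27 ± 0.25 (adjusted P = 1.62e-08). COX4, a subunit of cytochrome c oxidase, rose by 2.32, 2.31 and 2.52 on the galactose-labelled arrays and by 4.86, 4.31 and 4.28 on the glucose-labelled arrays. RIP1, the Rieske iron-sulfur protein, rose by 2.54, 2.57 and 2.68 against 4.93, 4.09 and 4.07. The COX4 and RIP1 differences of −2.10 and −1.76 were lost with quantile normalization (adjusted P = 0.0332 and 0.0309).

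Several markers of respiration missed the threshold early. CYC1 rose by 6.53, 6.64 and 7.16 on the galactose-labelled arrays and by 5.63, 5.81 and 5.79 on the glucose-labelled arrays, and the difference of 1.03 ± 0.20 missed the threshold (adjusted P = 0.0186). SOD2, mitochondrial superoxide dismutase, rose by 4.69, 4.75 and 5.03 on the galactose-labelled arrays and by 5.21, 5.84 and 5.70 on the glucose-labelled arrays, a difference of −0.76 that did not pass. HAP4, the regulatory subunit of the Hap complex, changed by −0.10, 0.40 and 0.40 on the galactose-labelled arrays and by 1.13, 1.04 and 1.05 on the glucose-labelled arrays, a difference of −0.84 that did not pass either.

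Of 34 hypoxic genes outside the stretch, 5 were lower in the galactose-labelled series at 6.13 generations and 0 higher, with a median difference of −0.32. HEM13 fell, with changes of −3.86, −3.83 and −3.82 on the galactose-labelled arrays and of −2.31, −2.19 and −2.10 on the glucose-labelled arrays, a difference of −1.64 ± 0.22 (adjusted P = 4.67e-06). DAN1 fell, with changes of −2.94, −2.98 and −3.12 on the galactose-labelled arrays and of −1.72, −1.53 and −1.69 on the glucose-labelled arrays, a difference of −1.37 ± 0.18 (adjusted P = 2.61e-06), and TIR3, another cell wall mannoprotein gene, differed by −1.66 ± 0.20 (adjusted P = 6.69e-07). AAC3, the anaerobic ADP/ATP carrier, and ERG11 were the others. DAN1 lost its call with quantile normalization (adjusted P = 0.0192).

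SCM4, which encodes a mitochondrial outer membrane protein, and FLR1, a multidrug transporter gene, stood out among genes of no list. SCM4 changed by 0.28, 0.39 and 0.86 on the galactose-labelled arrays and by 3.15, 3.71 and 3.62 on the glucose-labelled arrays, a difference of −2.98 ± 0.27 (adjusted P = 3.62e-11). FLR1 rose by 1.06, 0.70 and 0.92 on the galactose-labelled arrays and by 4.33, 3.42 and 3.36 on the glucose-labelled arrays, a difference of −2.81 ± 0.23 (adjusted P = 1.25e-12). BOL2, which acts in iron regulation, and YEH1, a steryl ester hydrolase gene, had differences of −1.90 and −1.85, and BOL2 lost its call with quantile normalization (adjusted P = 0.264).

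Of 24 glycolytic and fermentative genes outside the stretch, 3 (HXK2, TPI1 and GPM3) were lower and 0 higher, with a median difference of −0.51. HXK2, hexokinase II, fell, with changes of −1.74, −1.55 and −1.42 on the galactose-labelled arrays and changed by 0.09, −0.28 and −0.58 on the glucose-labelled arrays. GAL1, GAL2 and GAL10 did not pass at either time, with early differences of 0.18, −0.05 and 0.43. HXT2, a high-affinity hexose transporter gene, changed by −0.57, −0.61 and −0.44 on the galactose-labelled arrays and fell, with changes of −1.96, −2.18 and −2.05 on the glucose-labelled arrays, a difference of 1.52 ± 0.18 (adjusted P = 2.22e-07). HXT6 and HXT7, near-identical transporter genes with the same values and thus 1 measurement, differed by −1.36 (adjusted P = 0.00162), a call lost without any 1 of 3 arrays (adjusted P up to 0.0345).

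**Figure D3:**
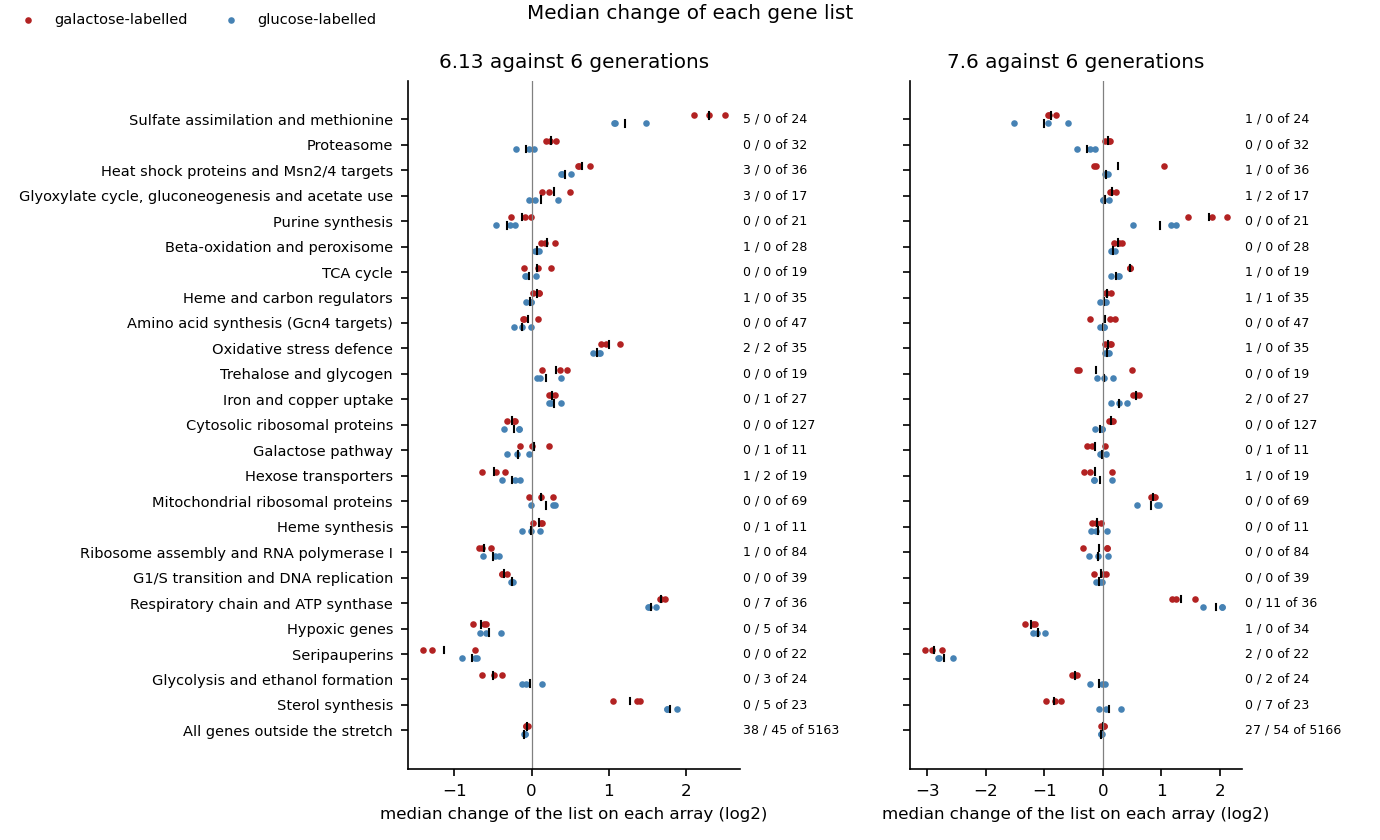
Median change of each list over its genes outside the stretch (log2), with 1 point per array, galactose-labelled in red above glucose-labelled in blue, and a tick at the mean of 3 arrays. The numbers at the right of each panel are the genes higher and lower in the galactose-labelled series of those tested, and sulfate assimilation early (5 higher, 0 lower of 24) and sterol synthesis late (0 higher, 7 lower of 23) show red points apart from blue points.

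The largest late difference outside the stretch was that of STL1, the glycerol and proton symporter. It rose by 5.19, 5.28 and 4.54 on the galactose-labelled arrays and changed by −0.29, 0.02 and −0.20 on the glucose-labelled arrays. The difference was 5.16 ± 0.30 (adjusted P = 8.45e-19), or 35.8-fold. Over the 10 times after gas return, the change of STL1 climbed in the galactose-labelled series to 1.56 at 6.13, 2.66 at 6.6 and 5.00 at 7.6 generations, while in the glucose-labelled series it stayed between −0.23 and 0.36. Relative to the reference, the galactose-labelled arrays were at −2.4, −2.4 and −2.7 at 6 generations and 2.7, 2.8 and 2.1 at 7.6. The glucose-labelled arrays were at 4.4, 3.9 and 4.4 at 6 generations and 4.0, 4.3 and 4.0 at 7.6. Such levels compare between the series only if both share a reference.

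YMR317W fell, with changes of −1.12, −1.25 and −1.48 on the galactose-labelled arrays and of −5.77, −5.30 and −5.55 on the glucose-labelled arrays, a difference of 4.25 ± 0.23 (adjusted P = 5.19e-20). HPF1, a cell wall mannoprotein gene, fell, with changes of −0.91, −0.85 and −1.09 on the galactose-labelled arrays and of −3.51, −3.27 and −3.20 on the glucose-labelled arrays, a difference of 2.38 ± 0.20 (adjusted P = 3.25e-12). CSS1 fell, with changes of −0.94, −0.99 and −1.05 against −3.77, −3.51 and −3.65. The smaller fall was thus in the galactose-labelled series in each.

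DAN4, another anaerobic mannoprotein gene, fell, with changes of −1.98, −2.15 and −2.10 on the galactose-labelled arrays and of −4.50, −4.17 and −4.87 on the glucose-labelled arrays, a difference of 2.44 ± 0.26 (adjusted P = 1.18e-08) that quantile normalization brought to 0.71 and ended. DAN4 was the single one of 34 hypoxic genes outside the stretch to differ late, while 1.57% of all genes there differed. Other hypoxic markers did not pass. HEM13, DAN1 and TIR1 had late differences of 0.55, 0.56 and 0.57, and ANB1 had one of 0.92 (adjusted P = 0.044). Among 22 seripauperin genes outside the stretch, near-identical copies whose probes may cross-hybridize, PAU3 and PAU15 were higher, by 1.53 ± 0.28 and 1.74 ± 0.28, and quantile normalization ended both calls. PAU3 also lost its call without any 1 of 10 arrays (adjusted P up to 0.142) and PAU15 without any 1 of 2 (adjusted P up to 0.0187).

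SIP4 stayed apart late, at −0.12, 0.09 and −0.32 on the galactose-labelled arrays, against −2.29, −2.16 and −2.05 on the glucose-labelled arrays. RIM4 and YTP1 were higher late too, by 2.23 and 2.09. SUE1, which acts in the breakdown of unstable cytochrome c, changed by 2.05, 3.16 and 2.43 on the galactose-labelled arrays and by 0.42, 0.26 and 0.71 on the glucose-labelled arrays, and SIT1, a siderophore transporter, by 2.27, 1.98 and 2.61 against 0.20, 0.99 and −0.30. Quantile normalization ended the calls of SUE1 and of SIP4 (adjusted P = 0.0125), and SIT1 lost its call without any 1 of 3 arrays (adjusted P up to 0.0325).

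**Figure D4:**
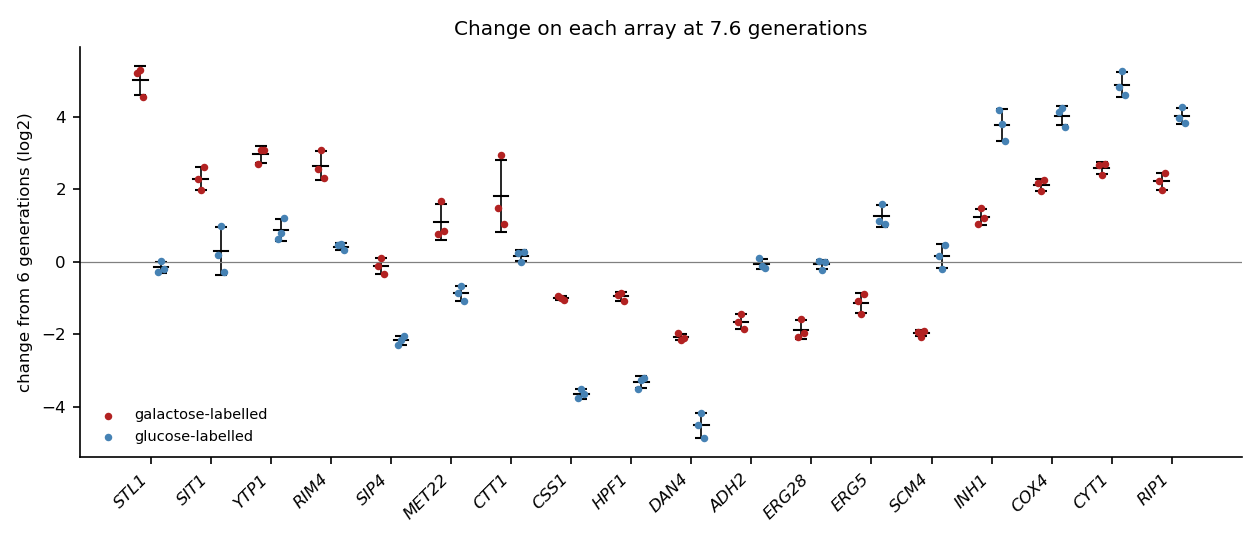
Change at 7.6 generations relative to 6 generations (log2) on each array for 18 genes outside the stretch, galactose-labelled arrays in red to the left of glucose-labelled arrays in blue, with lines at the mean and bars of 1 SD. The bars leave out the spread of the arrays at 6 generations. STL1 has galactose-labelled points between 4.54 and 5.28 and glucose-labelled points between −0.29 and 0.02. CTT1 has the widest bar, with 1 galactose-labelled array at 2.94.

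CTT1 remained higher late in the galactose-labelled series, but its arrays were unlike. The changes were 1.48, 2.94 and 1.05 on the galactose-labelled arrays, the highest of them on replicate 2, and 0.23, −0.01 and 0.26 on the glucose-labelled arrays. The difference of 1.66 ± 0.30 (adjusted P = 0.00852) was lost without any 1 of 10 arrays (adjusted P up to 0.0681). HSP12 changed by 4.07, 4.74 and 3.83 on the galactose-labelled arrays and by 1.75, 1.58 and 3.14 on the glucose-labelled arrays, and its difference of 2.05 ± 0.39 missed the threshold (adjusted P = 0.0144). MET22, which removes a by-product of sulfate assimilation, changed by 0.77, 1.67 and 0.84 on the galactose-labelled arrays and by −0.87, −0.67 and −1.08 on the glucose-labelled arrays, a difference of 1.96 ± 0.19 (adjusted P = 4.18e-10).

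At 7.6 generations 11 of 36 respiratory genes outside the stretch were lower and 0 higher, with a median difference of −0.53 against 0.032 over all genes outside the stretch. The array medians of the list were 1.34 ± 0.21 in the galactose-labelled series and 1.93 ± 0.19 in the glucose-labelled series (SD, n = 3). CYT1 rose by 2.68, 2.39 and 2.70 on the galactose-labelled arrays and by 4.81, 5.25 and 4.60 on the glucose-labelled arrays, a difference of −2.30 ± 0.25 (adjusted P = 1.05e-08). INH1, which encodes an inhibitor of ATP hydrolysis by the ATP synthase, rose by 1.05, 1.47 and 1.20 on the galactose-labelled arrays and by 4.18, 3.80 and 3.32 on the glucose-labelled arrays, a difference of −2.53 ± 0.22 (adjusted P = 4.12e-12). COX4 and RIP1 differed by −1.91 and −1.80, and RIP1 lost its call in the fit to the groups compared only (adjusted P = 0.061). Quantile normalization ended the calls of INH1 (adjusted P = 0.0453) and COX4 (adjusted P = 0.0528).

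COX5A and COX5B encode the aerobic and hypoxic isoforms of one oxidase subunit. COX5A rose by 2.33, 2.30 and 2.49 on the galactose-labelled arrays and by 3.53, 3.68 and 3.30 on the glucose-labelled arrays, a difference of −1.13 ± 0.17 (adjusted P = 1.10e-04) that quantile normalization ended. COX5B fell, with changes of −2.84, −1.65 and −2.75 on the galactose-labelled arrays and of −2.06, −2.04 and −1.75 on the glucose-labelled arrays, with overlapping groups and a difference of −0.46 that did not pass.

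Sterol synthesis stayed lower late, with 7 of 23 genes outside the stretch lower, 0 higher and a median difference of −0.79. The array medians of the list were −0.83 ± 0.13 in the galactose-labelled series and 0.10 ± 0.19 in the glucose-labelled series (SD, n = 3). ERG5 changed by −1.09, −1.43 and −0.89 on the galactose-labelled arrays and rose by 1.13, 1.60 and 1.03 on the glucose-labelled arrays, a difference of −2.39 ± 0.30 (adjusted P = 1.14e-06). ERG28, a scaffold for the demethylation enzymes, fell, with changes of −2.07, −1.59 and −1.96 on the galactose-labelled arrays and changed by 0.01, −0.22 and −0.01 on the glucose-labelled arrays, a difference of −1.80 ± 0.20 (adjusted P = 4.13e-08). CYB5, cytochrome b5, the electron donor of several of these enzymes, differed by −1.83 ± 0.27 (adjusted P = 5.84e-05), and YEH1 by −1.87 ± 0.26 (adjusted P = 1.50e-05). CYB5, ERG5 and YEH1 lost their calls in the fit to the groups compared only.

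In carbon metabolism ADH2, the glucose-repressed alcohol dehydrogenase, fell, with changes of −1.66, −1.45 and −1.87 on the galactose-labelled arrays and changed by 0.10, −0.11 and −0.18 on the glucose-labelled arrays, a difference of −1.60 ± 0.14 (adjusted P = 3.02e-11). CIT2, peroxisomal citrate synthase, fell in both, with changes of −2.04, −1.81 and −2.25 on the galactose-labelled arrays and of −0.81, −0.75 and −0.41 on the glucose-labelled arrays. ADR1, the activator of ADH2, changed by 0.69, 0.84 and 0.52 on the galactose-labelled arrays and rose by 2.06, 2.25 and 2.29 on the glucose-labelled arrays, a call that quantile normalization ended. AGX1 remained higher, with 2.03, 2.10 and 1.85 on the galactose-labelled arrays and 0.86, 1.05 and 0.75 on the glucose-labelled arrays, a difference of 1.11 ± 0.14 (adjusted P = 6.19e-07), so that 1 of 17 genes of gluconeogenesis and acetate use was higher and 2 lower. IDH2, a subunit of isocitrate dehydrogenase of the citric acid cycle, changed by 0.62, 1.07 and 0.83 on the galactose-labelled arrays and by −0.97, −0.66 and 0.05 on the glucose-labelled arrays. Its difference of 1.36 ± 0.20 (adjusted P = 6.71e-05) was lost with 6.8 in place of 7.6 generations (0.65, adjusted P = 1.0). It was also lost in the fit to the groups compared only. Of 24 glycolytic genes, PGI1 and CDC19 were lower. PGI1 lost its call without any 1 of 3 arrays (adjusted P up to 0.0470). SCM4 fell, with changes of −1.95, −2.06 and −1.91 on the galactose-labelled arrays against changes of 0.17, −0.19 and 0.47 on the glucose-labelled arrays. NCA3 differed by −1.80 and lost its call without any 1 of 2 arrays (adjusted P up to 0.0250). The calls of SCM4 (adjusted P = 0.258) and NCA3 were lost in the fit to the groups compared only. So were those of PGI1, CDC19 (adjusted P = 0.615), ADR1 (0.135), CIT2 (0.074) and AGX1 (0.076).

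Some lists had no called member outside the stretch at either time. The proteasome genes had median differences of 0.31 early and 0.33 late. The purine synthesis genes had median differences of 0.21 early and 0.65 late, and the cytosolic ribosomal protein genes −0.03 and 0.19. ACT1, actin, differed by −0.07 early and −0.54 late and did not pass.

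Over the full set of times, some genes reached their extremes at different sampled times in the 2 series, and others stayed apart at most times. The sulfate assimilation list reached its highest array median of 2.30 at 6.13 generations in the galactose-labelled series and of 1.77 at 6.2 generations in the glucose-labelled series. MET3 was highest at 6.13 generations in the galactose-labelled series (2.86) and at 6.2 generations in the glucose-labelled series (2.52). HSP12 was highest at 6.2 generations in the galactose-labelled series (4.75), whereas in the glucose-labelled series it was at 2.37 then, at 3.71 at 6.3 and highest at 6.8 generations (3.88). ERG3 was highest at 6.06 generations in both series, at 1.095 in the galactose-labelled and 1.965 in the glucose-labelled series. It was lowest at 6.2 generations in the galactose-labelled series (−3.32) and at 6.3 generations in the glucose-labelled series (−4.56). ERG1 was highest at 6.03 (1.33) and lowest at 6.2 generations (−2.34) in the galactose-labelled series. In the glucose-labelled series it was highest at 6.06 (1.54) and lowest at 6.3 generations (−2.83). HEM13 stood at −3.83 in the galactose-labelled series and −2.20 in the glucose-labelled series at 6.13 generations, and at −4.04 in the galactose-labelled series and −4.12 in the glucose-labelled series at 6.2 generations. These shapes are a description, and the shift in time was not tested. With 6.2 in place of 6.13 generations, 17 of the 51 early calls of named genes ended. The early differences of MET3, MET14 and HEM13 were then 0.17, −0.21 and 0.087. Those of CTA1, RIM4, PHM7 and SEO1 were 1.25, 1.60, 1.29 and 0.57, and those of ERG5, YEH1, BOL2, GPM3, and HXT6 and HXT7 were −1.39, −0.93, −0.94, −0.35 and −0.70.

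CYT1 and CTT1 were apart in their change from 6 generations at most of the times. CYT1 was at 1.51 in the galactose-labelled series and at 3.16 in the glucose-labelled series at 6.03 generations, at 3.07 and 5.33 at 6.13 generations, and at 2.59 and 4.89 at 7.6 generations. CTT1 peaked at 4.80 at 6.13 generations in the galactose-labelled series and at 2.24 at 6.1 generations in the glucose-labelled series, from where it returned to between −0.01 and 0.69 at 6.2 generations and after. The glycolytic list reached −1.32 at 6.3 generations in the galactose-labelled series and no lower than −0.27, at 6.4 generations, in the glucose-labelled series.

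**Figure D5:**
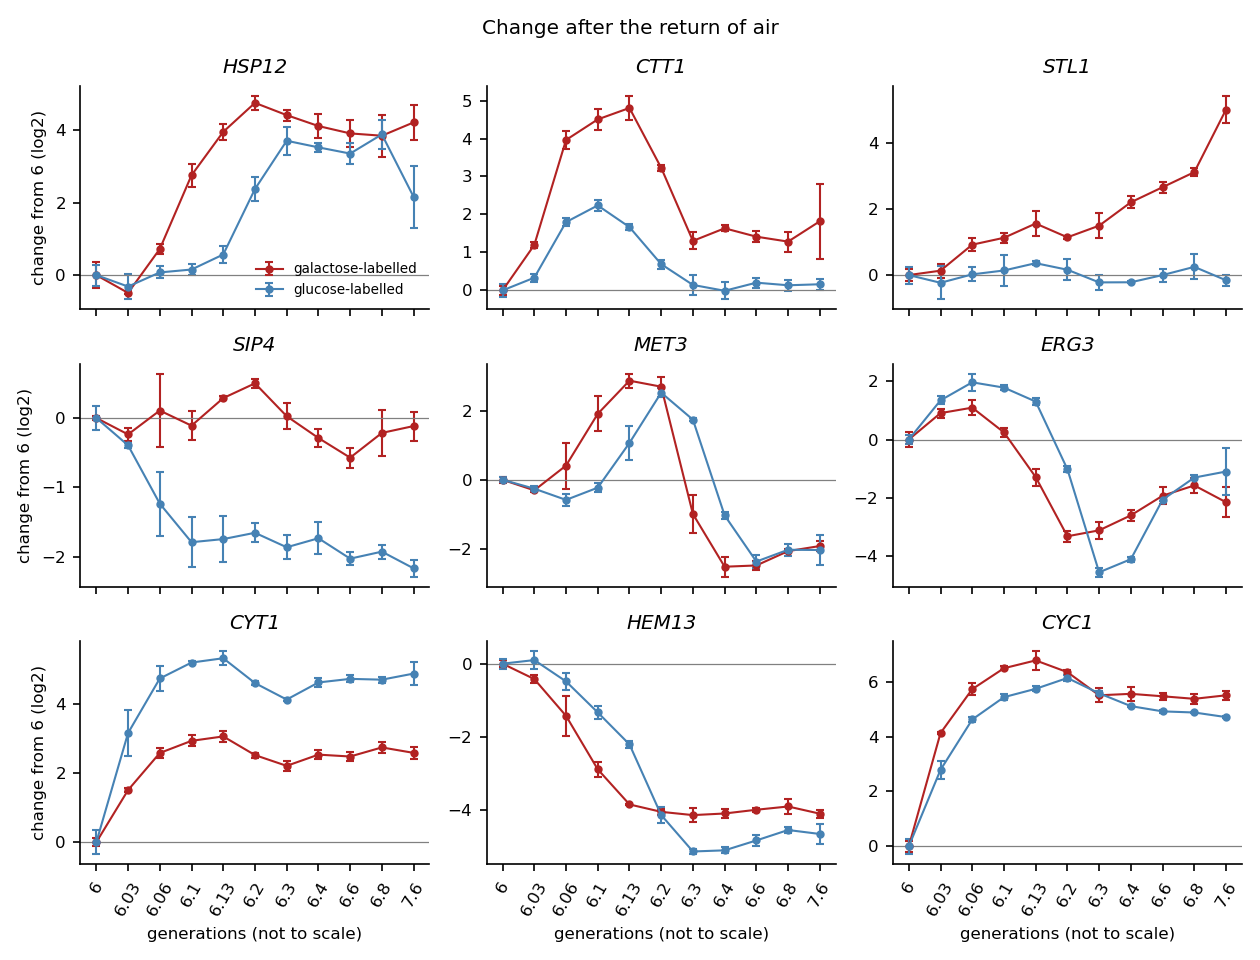
Change relative to 6 generations (log2, mean ± SD of 3 arrays) at each sampled generation, on an axis that is not to scale, in the galactose-labelled series (red) and the glucose-labelled series (blue) for 9 genes outside the stretch. MET3 reaches its highest and ERG3 its lowest value later in the glucose-labelled series, whereas CYT1, STL1 and SIP4 are apart at the later times.

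Large differences also lay in the stretch, where a name may not stand for the same gene in both series. OYE3, an NADPH oxidoreductase gene, changed by 0.17, 0.00 and 0.15 on the galactose-labelled arrays and rose by 5.19, 5.12 and 5.07 on the glucose-labelled arrays (difference −5.02 ± 0.16, adjusted P = 1.01e-30). ROX1, the heme-induced repressor of hypoxic genes, changed by 1.06, 1.26 and 1.09 on the galactose-labelled arrays. It rose by 4.63, 4.98 and 4.81 on the glucose-labelled arrays (−3.67 ± 0.35, adjusted P = 2.13e-10). The galactose-labelled arrays at 6 generations were far apart for ROX1, at −2.94, −0.36 and −1.83 (SD 1.29). Its early call was lost in the fit to the groups compared only (adjusted P = 0.207), and so was its late call. MET12, YAR1, PBI1 and ELP4 were higher early by 4.14, 4.16, 3.82 and 2.78, and CQD1, IDI1 and ERG10 lower, with differences of −3.10, −2.21 and −2.14. Late, PBI1, YAR1, PRM4, YPR015C and SPO19 were higher by 4.82, 3.54, 2.80, 2.69 and 2.29, and CQD1, ROX1 and MET31 lower, with differences of −4.49, −3.00 and −2.24.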

How the data were processed

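RNA was measured on two-color arrays of 70-mer oligonucleotides, with the sample in Cy3 and the reference in Cy5. Spots were read in GenePix, and the authors corrected background, normalized in SAS and deposited 1 log value per ORF and array for 5609 ORFs. The base is not stated, and the deposited values were read as log2. Of the ORFs, 5597 were named through a RefSeq gene table. No depth applies to arrays, and their number limits the precision.

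One mean per medium and time was fitted to the 66 re-aeration arrays in R 4.3.3 with limma 3.58.1, without a replicate block, and a Holm-adjusted P of 0.01 was required, with at least 2 values per group. Tests on simulated data preceded the fits. The members, the lists and the time points were chosen with earlier results of these data known. Genes were named by rule, namely the 10 with the largest positive and negative differences, the 2 of each list and a set of markers. The same count of 10 among genes outside the stretch was added after their values were seen. Alternatives were median centring, quantile normalization, no moderation, other adjustments, other time points, a fit to the compared groups, replicate blocks and single arrays left out. Leaving out the stretch of rows was chosen after seeing the data.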

Additional observations from a re-analysis of the deposited data

Results flagged for a closer look

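In 11 called differences of named genes outside the stretch of rows, the arrays of the 2 series lay on opposite sides. All 3 of one series lay above the mean of their arrays at 6 generations and all 3 of the other below it. The share of all genes tested that met this is not given here. Differences that did not pass also met it, namely GAL10 early and GAL1, NSR1 and ACT1 late. At 6.13 generations these were ERG3 (−2.59), ERG1 (−1.97), BRX1 (1.5), SIP4 (2.03) and YNL195C (2.53). At 7.6 generations they were ERG5 (−2.39), YEH1 (−1.87), CYB5 (−1.83), NCA3 (−1.80), ISU2 (1.38) and MET22 (1.96). ISU2, a scaffold gene for iron-sulfur clusters, changed by 0.67, 0.63 and 1.30 on the galactose-labelled arrays and by −0.56, −0.70 and −0.30 on the glucose-labelled arrays. The change within each series passed the test in both only for ERG3, ERG1 and MET22, and the quoted differences are tests of the difference itself. The mean at 6 generations is taken as fixed in this comparison, and its 3 galactose-labelled arrays had an SD of 0.90 for ERG5, 0.79 for YEH1, 0.48 for CYB5 and 0.49 for NCA3. The change of NCA3 on the galactose-labelled arrays (−0.31) and that of YNL195C on the glucose-labelled arrays (−0.22, SD at 6 generations 0.33) were smaller than this spread.

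The same was seen in 12 called differences of named genes in the stretch. Early they were CQD1 (−3.10), RPA135 (1.19), GAL4 (1.38), RDS2 (1.96), ELP4 (2.78), PBI1 (3.82) and YAR1 (4.16), and late CQD1 (−4.49), SAM3 (2.10), YPR015C (2.70), PRM4 (2.80) and PBI1 (4.82). Why the rows of the stretch disagree between the series was not tested.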

How the results depend on the processing

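Counts of called genes depended on the adjustment and on the arrays that estimate the spread. With a Benjamini-Hochberg adjustment at 0.01 the early and late differences had 391 and 393 genes, the changes in the galactose-labelled series 2038 early and 1353 late, and those in the glucose-labelled series 1654 and 1179. With a size of at least 1 on the log2 scale added, the changes fell to 479 and 329 in the galactose-labelled series and 368 and 337 in the glucose-labelled series. Quantile normalization left 392 early and 339 late changes in the glucose-labelled series, and its early and late differences had 194 and 148 genes, 61 and 46 of them shared with the 83 and 81 outside the stretch. A fit to the groups compared only gave 71 early and 32 late differences, 333 and 99 changes in the galactose-labelled series, 238 and 147 in the glucose-labelled series, and 50 of the 97 called differences of named genes. This fit has fewer arrays to estimate the spread. Without the stretch of rows there were 83 early and 83 late. With 6.1 and 6.8 generations in place of 6.13 and 7.6 there were 205 late differences. These times ended 11 of 51 early and 10 of 46 late calls of named genes, early also those of HXK2 (adjusted P = 0.0482), HXT2 (0.0744), DAN1 (0.0466), TIR3 (0.0446) and FBP1 (0.0198). With 6.2 in place of 6.13 generations 17 of 51 early calls ended, with YNL195C, SMF3, GLN1 and RDS2 besides those named in the report, and HEM13 and MET14 changed sign, to 0.087 and −0.21.

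With replicates left out, called genes ranged between 77 and 129 for the early difference, 62 and 131 for the late difference, 541 and 766 early and 410 and 621 late in the galactose-labelled series, and 387 and 560 early and 380 and 544 late in the glucose-labelled series. The named genes kept 59 to 91 of 97 calls and the lists 39 to 46 of 48 median signs. The fewest late differences came without replicate 2 of all groups. Called under every alternative were 29 named differences. Outside the stretch the early ones were AGX1, BRX1, CTT1, CYT1, ERG1, FLR1, HSP12, SCM4 and YMR317W. The late ones there were ADH2, CSS1, CYT1, ERG28, HPF1, STL1 and YMR317W. In the stretch they were CQD1, ELP4, MET12, OYE3, PBI1 and YAR1 early. Late they were CQD1, MET31, PBI1, PRM4, SPO19, YAR1 and YPR015C. The fit without the stretch has no value for the genes in it.

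The labels give no source that same-numbered arrays share, and the numbers were not taken as pairs, since not every correlation of their deviations exceeded 0.1. Within a medium 11 of 18 same-numbered pairs did, between −0.485 and 0.451 in all, and at 6 and 6.13 generations in the galactose-labelled series all 3 did (0.254, 0.299 and 0.223). Across media 2 of 9 did. With the number as a block within each medium 167 early and 171 late differences were called, and with a block shared across media 156 and 143.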
